A study of Bos taurus with 11 samples.

Results

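Glutathione is a tripeptide of glutamate, cysteine and glycine that cells keep at high concentration as their main soluble thiol. Glutamate-cysteine ligase and glutathione synthetase build it in consecutive steps, peroxidases spend it to reduce hydrogen peroxide and lipid peroxides, transferases attach it to reactive compounds, and glutathione reductase recycles the oxidised form with NADPH. In the postpartum uterus, where the lining is repaired amid bacteria and infiltrating leukocytes, these enzymes are part of the defence against oxidants. The set examined holds 10 genes of synthesis, recycling, peroxide reduction and conjugation, chosen by name: GCLC, GCLM, GSS, GSR, GPX1, GPX3, GPX4, GSTP1, GSTA1 and MGST1. A probe set, a group of short probes for 1 transcript, was used where the platform annotation gave exactly 1 symbol from that list. This found 9 probe sets for 8 of the 10 genes, among 24016 probe sets and 9155 named genes on the array. GSTP1 and GSTA1 were not analysed here. GPX1 had 2 probe sets and the other measured genes 1 each, and the probe set with the highest mean over all arrays stands for its gene.

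RNA came from the endometrium, the inner lining of the uterus, of 11 Holstein-Friesian dairy cows that had calved several times (parity averaged 4.7), with 1 Affymetrix bovine array per cow. The 6 severe negative energy balance cows received 4 kg of concentrate with 25 kg of silage per day and were milked 3 times daily, while the 5 mild negative energy balance cows had free access to grass silage, got 8 kg of concentrate a day and were milked 1 time daily. Negative energy balance means that milk and maintenance take more energy than feed supplies. In both groups the cows, whose previous lactation had yielded 6477 ± 354 kg on average, had been blocked on parity, body condition and that yield 2 weeks before calving was due and then allocated at random, the regimes ran from day 2 after calving, and the tissue was taken at slaughter, 14 ± 0.4 days after calving per the sample labels and on days 14 to 16 per the series title. The regimes differ in feed and in milking together, so these cannot be told apart.

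The values are RMA log2 signals, on which a difference of 1 is a doubling of signal. The signal of a probe set depends on its probes, so levels were compared between cows and never between genes. A signal under 5.52, below which the dimmest 40% of the probe sets lie, is called dim. All arrays had a median of 6.20, and any pair of them correlated at 0.948 to 0.991. RNA integrity, read from the gap between 3' and 5' probe sets of control transcripts, averaged 0.59 for severe (SD 0.14, n = 6) and 0.56 for mild cows (SD 0.073, n = 5; exact two-sided permutation p = 0.643). Of the endometrial markers, EPCAM was bright, with means of 10.33 (severe) and 10.34 (mild), and so was OXTR, the oxytocin receptor, at 8.95 (severe) and 9.05 (mild), while KRT8, PGR and ESR1 were dim on average.

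The comparison of severe with mild cows asks which endometrial transcripts go with the depth of the energy deficit. None of the 8 genes passed the test. Limma, fitted over all 24016 probe sets with Benjamini-Hochberg adjustment, called 0 probe sets (0%) at an adjusted p under 0.05 and 3085 (12.8%) at an unadjusted p under 0.05. Without severe 1 the adjusted count was 16 and without severe 3 it was 2, with 0 of the 8 genes among them. At that unadjusted level there were 4 of the 8 genes, where 15.9% of all genes reached it. GCLM, GPX1 and GPX3 were the 3 higher in severe cows, against 8.45% of all genes, and GSS the 1 lower, against 7.46%. Without mild 1 the count was 2 of the 8. The median difference of the 8 genes was -0.029 and that of all genes -0.0038, with 4 of the 8 and 48.9% of all genes above 0. The groups did not overlap for 1 of the 8, GSS, against 1.19% of all genes, 0.437% being lower and 0.754% higher in severe cows.

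**Figure D1:**
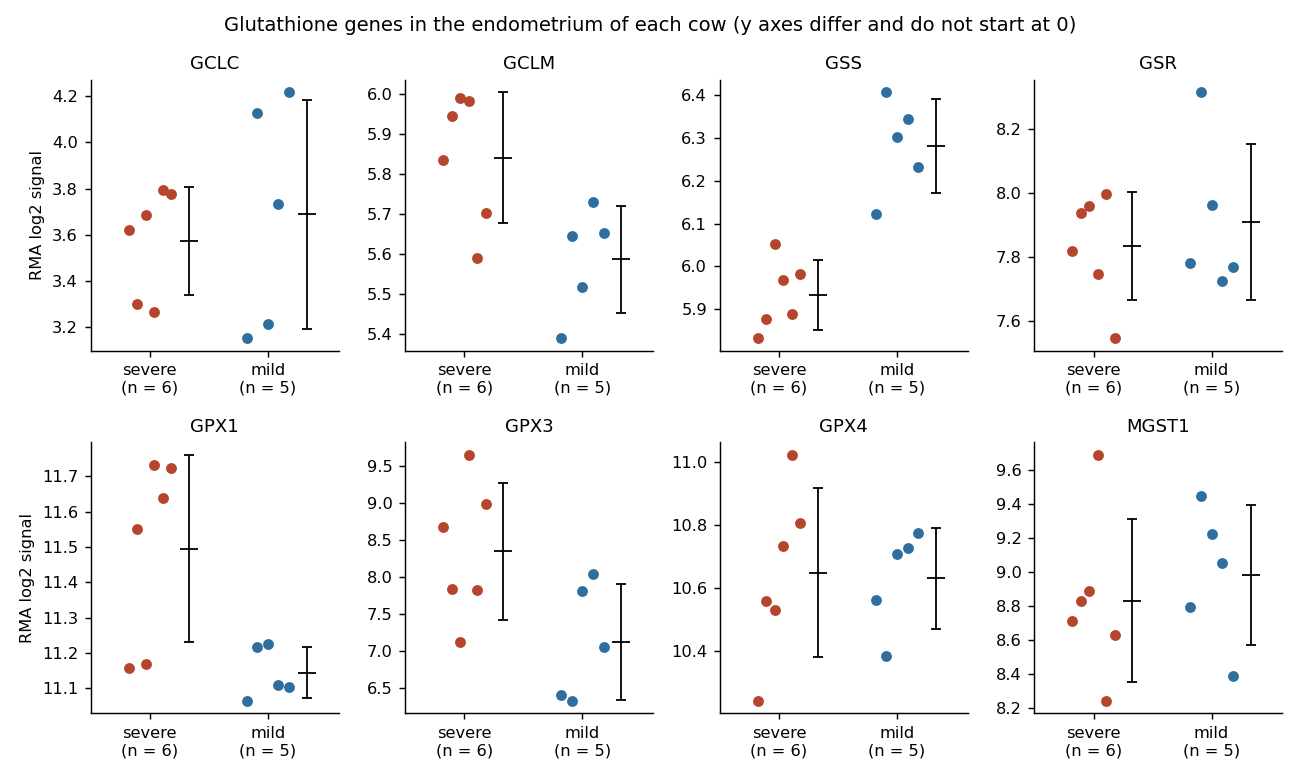
RMA log2 signal (y axis, a separate range per gene that does not start at 0) of the 8 measured glutathione genes in each cow, with severe cows in red and mild cows in blue, placed in the order of their numbers. Black bars are the mean ± SD; GSS shows no overlap, with severe cows at 5.83 to 6.05 and mild cows at 6.12 to 6.41, and GPX1 shows 4 severe cows between 11.55 and 11.73 above every mild cow.

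Synthesis starts with glutamate-cysteine ligase, which joins glutamate to cysteine and limits the rate of the pathway. Its catalytic subunit, GCLC, had a lowest signal of 3.26, a median of 3.65 and a highest of 3.79 in severe cows. In mild cows its signals were 3.15, 4.13, 3.21, 3.73 and 4.22. All 11 cows were dim for this probe set and the groups overlapped, so the difference of -0.11, with a 95% interval from -0.56 to 0.33, is not read as one of the enzyme's transcript. Without mild 5 it was 0.018.

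GCLM, the modifier subunit that raises the affinity of the ligase for glutamate and eases its inhibition by glutathione, was measured at a low but mostly not dim signal. In severe cows its lowest signal was 5.59, its median 5.89 and its highest 5.99. In mild cows the signals were 5.39, 5.64, 5.52, 5.73 and 5.65. Severe 1, severe 2, severe 3 and severe 4 lay above the highest mild cow, while severe 5 and severe 6 lay among the mild cows. Mean GCLM was 5.84 for severe (SD 0.16, n = 6) and 5.59 for mild cows (SD 0.13, n = 5), so the log2 difference was 0.25 (SE 0.094), or 1.19-fold with a 95% interval from 1.03 to 1.38. Its limma p was 0.0198 unadjusted and 0.332 adjusted over all probe sets. Mild 1 was dim for GCLM, and without that cow the difference was 0.21 with an unadjusted limma p of 0.0522.

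GSS, glutathione synthetase, adds glycine in the last step. Its lowest, median and highest signals were 5.83, 5.93 and 6.05 in severe cows. The mild cows had 6.12, 6.41, 6.30, 6.34 and 6.23. Every severe cow thus lay below every mild cow, with a gap of 0.070 between severe 3 and mild 1. The means were 5.93 for severe (SD 0.082, n = 6) and 6.28 for mild cows (SD 0.11, n = 5), with a log2 difference of -0.35 (SE 0.070). That is a signal of 0.785 times the mild level, with a 95% interval from 0.706 to 0.874. The limma p was 0.000361 unadjusted and 0.248 adjusted, and ranked by p the probe set stood at 34 of 24016. The cows of a group also lay close together for GSS, since only 8.46% of probe sets had a smaller residual SD. In bulk tissue fewer cells that make a transcript and less transcript per cell cannot be told apart.

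**Figure D2:**
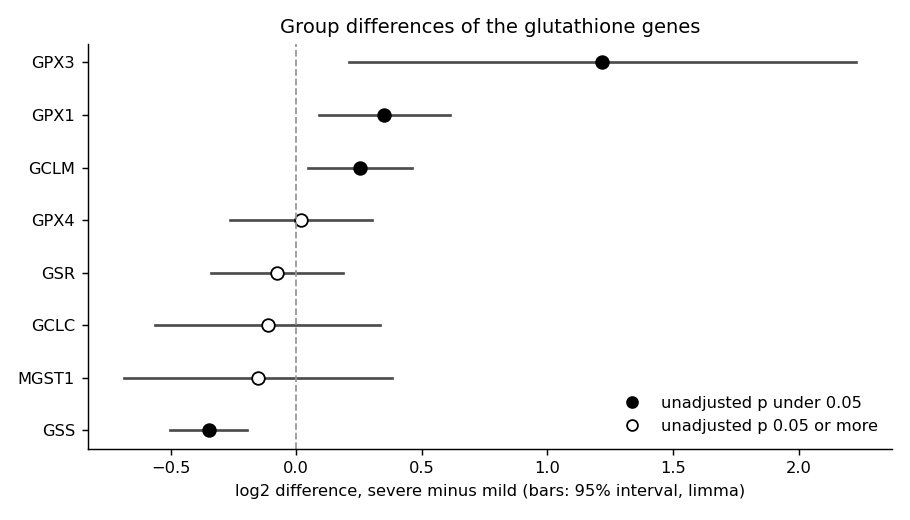
Log2 difference between severe and mild cows (x axis, severe minus mild) for the 8 measured genes, ordered by size, with the 95% interval from limma as a bar. Filled points have an unadjusted p under 0.05; GPX3 is at 1.22 with the widest interval of the 8, GSS at -0.35, and the intervals of GPX4, GSR, GCLC and MGST1 include 0.

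GSR, the reductase that turns oxidised glutathione back to its reduced form, showed no separation of the groups. Its lowest, median and highest signals were 7.54, 7.88 and 8.00 in severe cows. The mild cows had 7.78, 8.32, 7.96, 7.72 and 7.77. Mild 2 was the highest of all cows and severe 6 the lowest, and the other cows were interleaved. The difference was -0.077 with a 95% interval from -0.34 to 0.19 (limma adjusted p = 0.822), and 0.025 without mild 2.

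Of the peroxidases, which in mammals carry selenocysteine at the active site in GPX1, GPX3 and GPX4, the first reduces hydrogen peroxide in the cytosol and mitochondria. GPX1 had a lowest signal of 11.16, a median of 11.59 and a highest of 11.73 in severe cows. In mild cows it had 11.06, 11.22, 11.23, 11.11 and 11.10. The severe cows fell in 2 ranges, severe 1 and severe 3 at 11.16 and 11.17 inside the mild range and the other 4 above the highest mild cow. Mean GPX1 was 11.50 for severe (SD 0.27, n = 6) and 11.14 for mild cows (SD 0.073, n = 5), so the log2 difference was 0.35 (SE 0.12), or 1.28-fold with a 95% interval from 1.07 to 1.53. The limma p was 0.0124 unadjusted and 0.310 adjusted. The second GPX1 probe set was dim in all 11 cows, with means of 3.72 for severe and 3.65 for mild cows, and differed by 0.065 (SE 0.082).

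GPX3, the peroxidase secreted into plasma and extracellular fluid, had the largest difference of the 8 and also the widest spread. In severe cows the lowest, median and highest signals were 7.12, 8.25 and 9.65. In mild cows the signals were 6.41, 6.32, 7.81, 8.03 and 7.06. Severe 1, severe 4 and severe 6 lay above the highest mild cow, mild 1, mild 2 and mild 5 lay below the lowest severe cow, and the other 5 cows overlapped. The means were 8.35 for severe (SD 0.92, n = 6) and 7.13 for mild cows (SD 0.78, n = 5), with a log2 difference of 1.22 (SE 0.46). The fold was 2.33 with a 95% interval from 1.16 to 4.69, and the limma p was 0.0222 unadjusted and 0.335 adjusted. A residual SD smaller than that of GPX3 was found for 98.6% of probe sets. Without mild 1 the GPX3 difference was 1.04 with an unadjusted limma p of 0.0611, and without mild 2 it was 1.02 with an unadjusted limma p of 0.0592.

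GPX4 reduces lipid hydroperoxides within membranes and so restrains ferroptosis, a form of cell death driven by lipid peroxidation. Its lowest, median and highest signals were 10.24, 10.65 and 11.02 in severe cows. The mild cows had 10.56, 10.38, 10.71, 10.73 and 10.77. Severe cows were both the lowest and the highest of all, severe 1 and severe 5. The difference was 0.019 ± 0.13 (SE) with a 95% interval from -0.27 to 0.30, or folds from 0.832 to 1.23 (limma adjusted p = 0.966). It was -0.026 after a second quantile normalization of the arrays.

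MGST1, a membrane-bound transferase that also reduces lipid peroxides, was the measured transferase of the set. Its lowest, median and highest signals were 8.24, 8.77 and 9.69 in severe cows. The mild cows had 8.80, 9.45, 9.23, 9.05 and 8.39. Of the severe cows severe 4 alone lay above the mild mean, and it was also the highest of all cows. The difference was -0.15 with a 95% interval from -0.68 to 0.38 (limma adjusted p = 0.829), -0.32 without severe 4, and 0.084 without mild 2 and severe 5.

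Leukocyte marker scores averaged higher in severe cows. Each of the 7 neutrophil markers on the array averaged higher in the severe group. For 6 of them no severe cow overlapped a mild one, against 1.19% of all genes without overlap. Their score, the mean log2 value minus the mean over all cows, ran from -0.20 to 2.37 in severe and from -1.87 to -0.71 in mild cows (exact two-sided permutation p = 0.00433, adjusted p = 0.0433 over 10 marker lists). TREM1 and FCGR3A were the dim markers of that list. All marker lists were chosen with earlier results of these data known, so the p-values of the scores only describe them. The 3 severe cows with the highest neutrophil scores, severe 4, severe 5 and severe 6, at 2.37, 1.88 and 1.28, were also the 3 with the highest GPX1, at 11.73, 11.64 and 11.72. They were the 3 highest severe cows for GPX4 as well, at 10.73, 11.02 and 10.80, a gene whose group means lay close together. Mild cows did not follow that order: mild 2, with the lowest neutrophil score of -1.87, had a GPX1 of 11.22, and mild 4, with the highest mild score of -0.71, had 11.11. Severe 1, with the lowest neutrophil score among severe cows, had the lowest GPX1 of that group but a GPX3 of 8.67. For GCLM, severe 5 and severe 6 were the lowest of the severe cows. All 8 measured macrophage markers were higher, with scores from -0.84 to 1.31 in severe and from -1.23 to 0.19 in mild cows (exact p = 0.0887, adjusted p = 0.148). B and plasma cell scores (5 of 5 markers higher, 3 of them dim) ran from -1.07 to 2.30 in severe and from -1.49 to 0.44 in mild cows (exact p = 0.0303, adjusted p = 0.0758). T and NK cell scores (10 of 10 markers higher, CD4 dim) ran from -0.23 to 0.97 in severe and from -0.96 to 0.14 in mild cows (exact p = 0.0281, adjusted p = 0.0758). The part of these cells in the differences of GSS, GCLM, GPX1 and GPX3 was not tested.

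The cells that build the endometrium gave smaller score differences. Epithelial scores ran from -0.99 to 0.39 in severe and from -0.28 to 0.49 in mild cows, with 4 of 9 markers higher (exact p = 0.671). Scores of stromal fibroblasts, smooth muscle and endothelium differed by 0.090, -0.23 and 0.058 (exact p = 0.489, 0.444 and 0.686), with 5 of 9, 1 of 6 and 4 of 6 markers higher in severe cows. Single cows moved these values: the stromal difference was 0.0046 without mild 2 and 0.17 without mild 1, and that of smooth muscle -0.090 without severe 6 and -0.40 without mild 5. Some markers differed more than their score. Among stromal markers PDGFRA differed by 0.97 ± 0.27 (SE) and HOXA10 by -0.71 ± 0.20, and among epithelial ones CLDN10 by -1.0 ± 0.42. All 5 red blood cell markers were dim, and their score differed by -0.070 (exact p = 0.0606). The 4 measured genes of uterine identity, PGR, ESR1, OXTR and HOXA10, averaged lower in severe cows, with scores from -0.39 to 0.036 in severe and from -0.0085 to 0.49 in mild cows (exact p = 0.00866, adjusted p = 0.0433). PGR and OXTR differed by less than their SE, -0.043 ± 0.18 and -0.11 ± 0.19 (SE). ESR1 differed by -0.61 ± 0.21 (SE) and HOXA10 by -0.71, as given above. HOXA10 is in the stromal list too, and PGR and ESR1 were dim on average. The part of these cells and genes in the results was not tested either.

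Whether genes of linked function varied together from cow to cow was examined in 4 pairs, on deviations from the group means over 11 cows. GPX1 and GPX4 had a Pearson r of 0.64 (permutation p = 0.102, adjusted p = 0.410 over the 4 pairs) and a Spearman rho of 0.58 (permutation p = 0.118, adjusted p = 0.473). Without severe 1 and severe 3, the cows farthest from the median for GPX1, r was 0.31, so the value rests on those cows. GPX1 and GSR, the peroxidase and its recycling partner, had r = -0.098 (permutation p = 0.777, adjusted p = 0.777) and rho = -0.018 (permutation p = 0.968, adjusted p = 1.0), and r = 0.034 without the same cows. GCLC with GCLM had r = 0.13 (permutation p = 0.699, adjusted p = 0.777) and rho = 0.0 (permutation p = 1.0, adjusted p = 1.0). GCLC with GSS had r = 0.38 (permutation p = 0.351, adjusted p = 0.701) and rho = 0.36 (permutation p = 0.354, adjusted p = 0.708). Without mild 1 and mild 3, farthest from the median for GCLC, r was -0.33 with GCLM and 0.16 with GSS. Within groups the signs could be opposite, given here as values without a test for the 5 mild cows. For GCLC with GCLM r was -0.72 in severe (exact p = 0.113) and 0.77 in mild cows, and for GCLC with GSS 0.13 in severe (exact p = 0.768) and 0.50 in mild cows. For GPX1 with GPX4 it was 0.79 in severe (exact p = 0.0569) and -0.33 in mild cows, and for GPX1 with GSR -0.41 in severe (exact p = 0.404) and 0.79 in mild cows. No pair passed the adjustment, and the pairs with GCLC rest on a dim probe set.

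Other genes of glutathione metabolism and its supply were examined in 10 lists that hold 106 genes, 68 of them measured. Limma called 0 of the 68 at an adjusted p under 0.05. At an unadjusted p under 0.05 there were 16, 6 higher and 10 lower in severe cows, where 8.45% of all genes were higher and 7.46% lower at that level. Without mild 2 there were 9. The median difference of the 68 genes was -0.053, with 26 above 0 and 42 below. The lowest adjusted p among them was 0.284, for MAFF, so the genes that follow are given as values. Means of these genes are given ± SD over 6 severe and 5 mild cows.

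**Figure D3:**
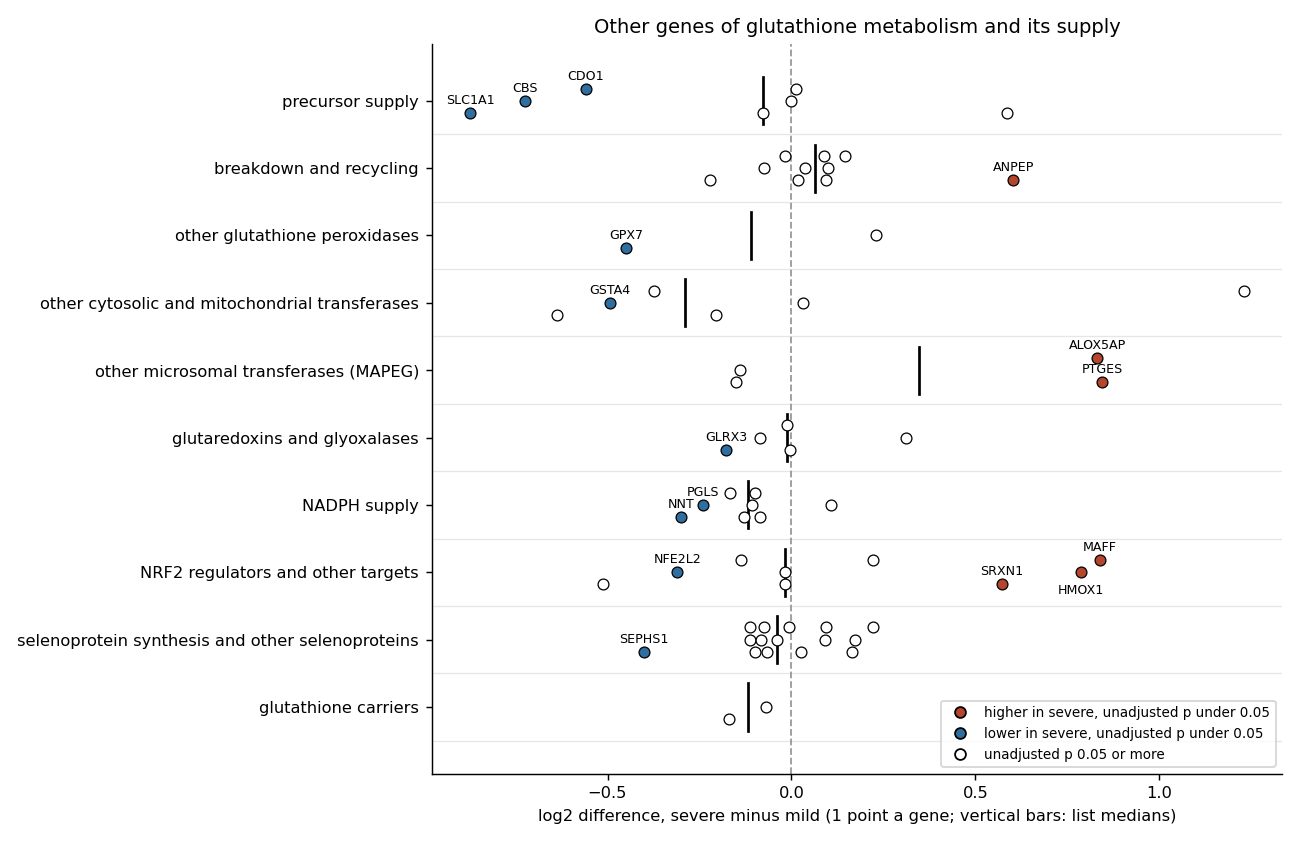
Log2 difference between severe and mild cows (x axis, severe minus mild) for the 68 measured genes of the 10 lists, 1 point per gene and 1 row per list, with vertical bars at list medians. Coloured and named points have an unadjusted p under 0.05. Among them, 3 of 7 precursor supply genes lie to the left of -0.5, and PTGES, ALOX5AP, MAFF and HMOX1 lie to the right of 0.7. Open points beyond these limits are GSTO1 at 1.23, GSTM3 at -0.64 and NQO1 at -0.51.

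In precursor supply, 3 of 7 measured genes were at an unadjusted p under 0.05, all lower in severe cows. SLC1A1, a transporter of glutamate and cysteine, had means of 4.84 for severe and 5.72 for mild cows, a difference of -0.87 ± 0.36 (SE), and was dim when averaged over all cows. CBS, cystathionine beta-synthase, which leads homocysteine toward cysteine, averaged 5.67 ± 0.41 in severe and 6.39 ± 0.69 in mild cows, a difference of -0.72 ± 0.30 (SE, limma adjusted p = 0.356). CDO1, the dioxygenase that removes cysteine by oxidation, averaged 7.88 ± 0.56 in severe and 8.44 ± 0.26 in mild cows, a difference of -0.56 ± 0.25 (SE). Its second probe set, dim, differed by -0.055 ± 0.066 (SE). Of the 3, CBS and SLC1A1 are on the side of supply and CDO1 on that of loss. Alternative fits changed the processing or, in most of them, left out cows. The unadjusted limma p stayed under 0.05 in 13 of 20 such fits for CBS, 12 of 19 for SLC1A1 and 11 of 20 for CDO1.

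Among 10 measured genes of glutathione breakdown and recycling 1 was at an unadjusted p under 0.05. That gene, ANPEP, a cell-surface aminopeptidase that splits cysteinylglycine, averaged 8.40 ± 0.34 in severe and 7.79 ± 0.32 in mild cows, a difference of 0.60 ± 0.18 (SE, limma unadjusted p = 0.00643, adjusted p = 0.304). Severe cows lay at 7.79 to 8.74 and mild cows at 7.55 to 8.34, and 5 of 6 severe cows were above the highest mild cow, mild 5. GGCT, a cyclotransferase, and DPEP1, a dipeptidase, differed by -0.22 (-0.091 without mild 2, -0.34 without mild 1) and 0.090 (0.051 without mild 3, 0.15 without mild 5), and both were dim on average.

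The remaining peroxidases went apart in sign. GPX7, a peroxidase of the endoplasmic reticulum that lacks selenocysteine, had means of 8.72 for severe (SD 0.26, n = 6) and 9.17 for mild cows (SD 0.22, n = 5). Its lowest, median and highest signals were 8.44, 8.72 and 9.15 in severe cows, against 9.02, 9.16, 9.50, 9.21 and 8.93 in mild cows. All severe cows except severe 5 lay below the lowest mild cow, and the difference was -0.45 ± 0.14 (SE, limma unadjusted p = 0.00733, adjusted p = 0.306). GPX2, an epithelial peroxidase best known from the gut, differed by 0.23 ± 0.13 (SE), and GPX5, GPX6 and GPX8 were not analysed here.

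Of 6 other measured cytosolic and mitochondrial transferases, 1 was at an unadjusted p under 0.05. GSTA4, which conjugates the lipid peroxidation product 4-hydroxynonenal, averaged 8.93 ± 0.24 in severe and 9.42 ± 0.42 in mild cows, a difference of -0.49 ± 0.18 (SE, limma adjusted p = 0.332). GSTM3, a mu-class transferase, differed by -0.64 ± 0.36 (SE), and by -0.37 without mild 2. GSTO1, an omega-class enzyme, had means of 8.57 for severe (SD 0.56) and 7.34 for mild cows (SD 1.85), where mild 1 alone lay at 4.16 while the other mild cows lay at 7.36 or above. Its difference of 1.23 was 0.43 without mild 1.

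The microsomal family to which MGST1 belongs includes enzymes and partners of eicosanoid synthesis. PTGES, the inducible prostaglandin E synthase, ran from 7.31 to 8.27 in severe and from 6.17 to 7.60 in mild cows, with 4 of 6 severe cows above the highest mild cow and a difference of 0.84 ± 0.26 (SE, limma unadjusted p = 0.00680, adjusted p = 0.306). ALOX5AP, which presents arachidonic acid to 5-lipoxygenase and is abundant in leukocytes, averaged 5.74 ± 0.88 in severe and 4.91 ± 0.21 in mild cows. It was dim in every mild cow, in severe 1, severe 2 and severe 3, and on average over all cows. Its 3 highest cows, at 7.17, 6.40 and 5.64, were severe 4, severe 5 and severe 6, which also had the highest neutrophil scores. The same cows were the highest for PTGES, at 8.21, 8.27 and 8.18. Without severe 4 the ALOX5AP difference of 0.83 was 0.55. The part of leukocytes in the differences of PTGES and ALOX5AP was not tested. MGST3 differed by -0.15 ± 0.099 (SE), and by -0.087 without mild 2.

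NADPH, which GSR spends, comes from the pentose phosphate pathway and from mitochondrial and cytosolic dehydrogenases, and 7 of its 8 measured supply genes averaged lower in severe cows, with a median of -0.12. NNT, the mitochondrial transhydrogenase, had lowest, median and highest signals of 8.00, 8.10 and 8.38 in severe cows, against 8.26, 8.43, 8.57, 8.51 and 8.46 in mild cows. It differed by -0.30 ± 0.087 (SE, limma unadjusted p = 0.00511, adjusted p = 0.296), with 4 of 6 severe cows below the lowest mild cow, and its second probe set by -0.12 ± 0.083 (SE). PGLS, 6-phosphogluconolactonase of the pentose phosphate pathway, averaged 8.98 ± 0.11 in severe and 9.22 ± 0.15 in mild cows, a difference of -0.24 ± 0.084 (SE, limma adjusted p = 0.317). IDH2, the mitochondrial NADP-dependent isocitrate dehydrogenase, differed by -0.17 ± 0.12 (SE), and by -0.091 without mild 2.

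NRF2, encoded by NFE2L2, is the transcription factor that in mice and humans drives GCLC, GCLM, GSR and other antioxidant genes together with small MAF proteins. NFE2L2 itself had means of 10.86 for severe (SD 0.14, n = 6) and 11.17 for mild cows (SD 0.26, n = 5), a difference of -0.31 (SE 0.12, limma unadjusted p = 0.0230, adjusted p = 0.336), while its second probe set was dim and differed by 0.0061. MAFF, a small MAF partner, was the gene of the lists with the smallest p. Its lowest, median and highest signals were 6.98, 7.28 and 8.14 in severe cows, against 6.74, 6.31, 6.72, 6.38 and 6.67 in mild cows. All severe cows lay above all mild cows, and the difference was 0.84 ± 0.20 (SE, limma unadjusted p = 0.00149). MAFF was the 1 of the 68 measured list genes whose groups did not overlap, where 1.19% of all genes did not.

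SRXN1, sulfiredoxin, which restores overoxidised peroxiredoxins, averaged 5.94 ± 0.31 in severe and 5.37 ± 0.22 in mild cows, where it was dim on average. It differed by 0.57 ± 0.15 (SE, limma unadjusted p = 0.00290, adjusted p = 0.288). HMOX1, haem oxygenase, averaged 9.85 ± 0.58 in severe and 9.06 ± 0.57 in mild cows, a difference of 0.79 ± 0.31 (SE, limma adjusted p = 0.342), and was named after its value was seen. Of the 9 measured genes of this list 3 were thus higher and 1 lower at an unadjusted p under 0.05, and the median was -0.016. The other measured targets averaged lower without reaching that level. NQO1 differed by -0.51 ± 0.33 (SE), OSGIN1, dim on average, by -0.14 and TXNRD1 by -0.018. The other measured regulators, KEAP1 and MAFG, differed by -0.016 and 0.22. Of the glutathione genes named with NRF2, GCLM averaged higher and GSR did not, as given above. GCLC was dim in every cow and is not read.

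**Figure D4:**
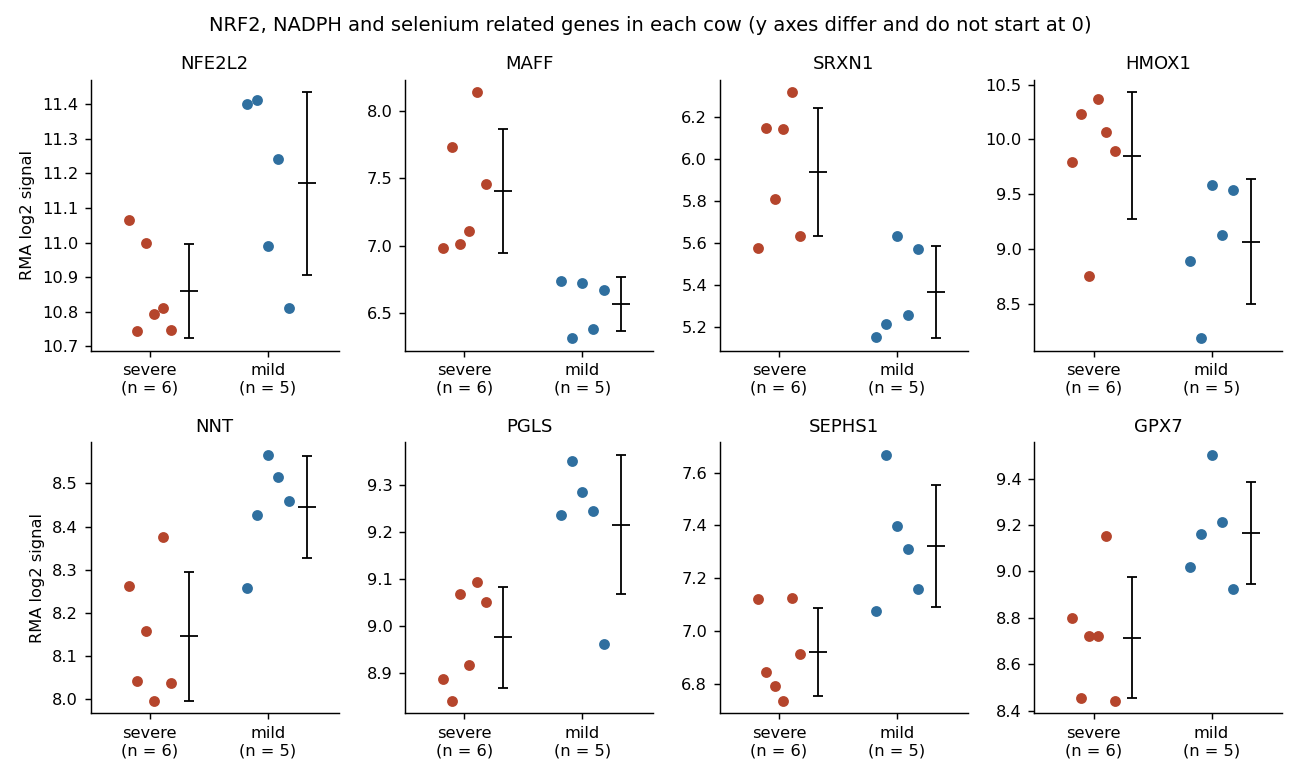
RMA log2 signal (y axis, a separate range per gene that does not start at 0) of 8 genes of NRF2 regulation, NADPH supply, selenium use and peroxide reduction in each cow, with severe cows in red, mild cows in blue and black bars at the mean ± SD. MAFF shows no overlap, with severe cows at 6.98 or above and mild cows at 6.74 or below, and the other 7 genes overlap.

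GPX1, GPX3 and GPX4 need the machinery that inserts selenocysteine, and 1 of 15 measured genes of that machinery and of other selenoproteins was at an unadjusted p under 0.05. SEPHS1, a homologue of the selenophosphate synthetase that itself lacks selenocysteine, averaged 6.92 ± 0.17 in severe and 7.32 ± 0.23 in mild cows, a difference of -0.40 ± 0.12 (SE, limma unadjusted p = 0.00503, adjusted p = 0.295). The synthetase, SEPHS2, differed by 0.095 ± 0.14 (SE), and EEFSEC, also of that machinery, by -0.067 ± 0.12. SCLY, which releases selenium from selenocysteine, differed by 0.22 ± 0.14 (SE), and TXNRD2, the mitochondrial thioredoxin reductase, by -0.11 ± 0.077, or -0.18 without mild 1. Among 5 measured glutaredoxins and glyoxalases GLRX3, an iron-sulphur glutaredoxin, differed by -0.18 ± 0.069 (SE, limma adjusted p = 0.339), and its second probe set, dim, by 0.021. GLRX5, its mitochondrial relative, differed by 0.31 ± 0.27, with 0.52 without severe 3 and 0.20 without severe 4. GLO1, which detoxifies methylglyoxal, differed by -0.086 ± 0.13, with -0.18 without severe 3 and -0.034 without severe 4. The 2 measured carriers, ABCC1, an exporter of glutathione conjugates, and SLC25A40, a mitochondrial carrier, differed by -0.17 ± 0.18 and -0.068 ± 0.17 (SE), the first being -0.30 without severe 5 and -0.084 without severe 2, the second -0.18 without severe 1 and 0.061 without mild 5.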

How the data were processed

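The authors' deposited values are log2 signals made with RMA, per the submitters' processing notes. RMA corrects background, quantile-normalizes arrays and summarises probes, which hides any shift shared by every transcript. The sources used here give no version, program or filter for it. The log2 scale was read from the values, which run from 2.63 to 14.57. An array has no read depth, and the number of arrays limits precision.

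Of 24128 probe sets 112 controls were left out. The platform annotation gave 1 symbol for 13292 of the rest, several for 86 and none for 10638. By Entrez number 13263 were found among RefSeq's genes (assembly ARS-UCD2.0), and 0 were renamed. Limma 3.58.1 (R 4.3.3; lmFit, eBayes, two-sided tests, no covariate) compared the severe with the mild group. The code was also run on simulated data, a check that gives no support to any difference in these cows. Marker scores were compared over all 462 splits of the cows, and correlations were tested by 100000 permutations within groups. The planned pair of GSTA1 with MGST1 was not run. Genes named are the 8 measured members and, since none passed, the 3 with the smallest p in each list, plus HMOX1. SEPHS2, EEFSEC and the other measured genes of the NRF2 list are given as differences only. Alternatives were a filter on dim probe sets, other normalizations, array weights, an RNA quality covariate, other rules for genes with several probe sets, and leaving out cows. Members and lists were chosen with earlier results of these data known. Replicate numbers only name cows. Figures were drawn with matplotlib 3.10.9.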

Additional observations from a re-analysis of the deposited data

Results flagged for a closer look

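In 6 of 96 checks, each of 1 gene or score in 1 group of cows, a single cow stood far from the others of its group by Dixon's criterion at the 95% level, which chance meets in about 1 of 20 groups. ANPEP stood at 8.34 in mild 5, inside the range of the severe cows. TXNRD2 was low in mild 1, at 5.80. SLC25A40 was high in severe 1, at 6.52. HMOX1 was low in severe 3, at 8.75. The B and plasma cell score was high in mild 3, at 0.44. The red blood cell score was high in mild 1, at 0.13, though all of its markers were dim. Of the 8 measured glutathione genes 0 met the criterion in either group.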

How the results depend on the processing

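Under 20 alternatives, of which 1 left out the dim GCLC, the 8 genes gave 159 differences; 150 kept their sign and 0 passed an adjusted p of 0.05. GSS stayed lower, from -0.39 to -0.31 (adjusted p from 0.115 to 0.522), GPX1 higher, from 0.21, with both probe sets averaged, to 0.42, GCLM from 0.21 to 0.32 and GPX3 from 0.96 to 1.46. GPX4 turned to -0.026 after a second quantile normalization, -0.025 with array weights and -0.12 without mild 2 and severe 5, and without 1 cow at a time it ran from -0.056 (without severe 5) to 0.10 (without severe 1), also below 0 without mild 2 or severe 6. MGST1 turned to 0.084 without mild 2 and severe 5, GSR ran from -0.12 to 0.025 (without mild 2) and GCLC from -0.25 to 0.018 (without mild 5). The 29 pathway genes named by the rule for each list, with HMOX1, kept their sign in 575 of 576 differences. The exception was SLC25A40, from -0.18 to 0.061 (without mild 5). Leaving out cows 1 at a time, the count of glutathione genes at an unadjusted p under 0.05 ran from 2 (without mild 1) to 4, that of pathway genes from 9 (without mild 2) to 20, and that of probe sets at an adjusted p under 0.05 from 0 to 16 (without severe 1), or 2 without severe 3; at a threshold of 0.10 it was 0 with all cows. Score differences ran from -0.22 to 0.054 for epithelium (without severe 5), -0.031 (without mild 2; -0.0062 without severe 6) to 0.11 for endothelium, 0.0046 to 0.17 for stromal fibroblasts, -0.40 to -0.090 for smooth muscle, 0.66 to 1.10 for macrophages, 1.42 to 2.10 for B and plasma cells, 0.66 to 0.93 for T and NK cells and -0.082 to -0.046 for red blood cells. Without mild 2 and severe 5 they were 0.16 for epithelium, -0.070 for endothelium, 0.53 for macrophages, 1.29 for B and plasma cells (exact p = 0.0873), 0.58 for T and NK cells (exact p = 0.103) and -0.086 for red blood cells (exact p = 0.0397). For GCLC with GCLM r was -0.72 within the 6 severe cows (exact p = 0.113) and 0.77 within the 5 mild cows, and for GPX1 with GPX4 and GPX1 with GSR the groups also had opposite signs. The causes were not tested. No paired analysis was possible because replicate numbers only name the cows and no label ties a cow to its block. GCLC was dim in all 11 cows, so the arrays set no useful limit on its difference.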
